A study of Mus musculus with 9 samples.

Results

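The elastic-fiber genes examined here were elastin (Eln), the fibrillins Fbn1 and Fbn2, the fibulins Fbln1, Fbln2, Fbln5, Efemp1 (fibulin-3) and Efemp2 (fibulin-4), and the microfibril-associated glycoprotein genes Mfap4 and Mfap5. The 10 were chosen by name from the 55416 genes of the count table, and all 10 passed the filter on low counts that left 14879 genes for testing. The question put to them was how elastin moved relative to its microfibril scaffold. The list was selected on the pathway, with the fold changes and levels of these same 9 libraries known, so the members' levels and differences are given as a description, without p-values.

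AdvSca1-SM cells are smooth muscle-derived progenitors of the arterial adventitia that carry Sca1. They were sorted as YFP+ Sca1+ cells from the aorta and the carotids of SM22α-Cre-YFP mice (pooled animals), in which the smooth muscle SM22α promoter drives the Cre that switches on YFP, and were expanded in culture. By the growth protocol given with all libraries, they were growth-arrested for 24 hours in 0.1% serum before the treatment. Each of 3 groups had 3 RNA-seq libraries: Stem, grown in stem cell medium (αMEM with serum, basic fibroblast growth factor and epidermal growth factor); TGF-β, moved to DMEM with 0.1% serum and given 5 ng/mL TGF-β1; and Both, given the same plus 50 μM PFI-3, a ligand of the Brg1 bromodomain. Every group received 0.1% DMSO and RNA was taken after 72 hours. The labels do not give the serum content of the Stem medium over the 72 hours. Medium, and any serum difference, changed together with TGF-β1. In Stem versus TGF-β and in Stem versus Both their parts thus cannot be told apart. By the labels, TGF-β versus Both differs in PFI-3 alone. The study's methods call its replicates biological, but the cells came from pooled animals. The labels tie no library to an animal or a culture, so the SDs below are the spread between these libraries. Each SE is the size of the log2 fold change divided by the square root of F from edgeR's quasi-likelihood test. That test fits all libraries together and shares information on spread between genes, so an SE can differ from a gene's own spread. Neither error can be read as a spread between animals.

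Elastic fibers let arteries stretch and recoil. Cells first secrete fibrillins, which assemble outside the cell into microfibrils; tropoelastin, the soluble product of Eln, is then delivered to this scaffold with the help of fibulin-4 and fibulin-5 and is crosslinked by lysyl oxidases into an insoluble core. In arteries the smooth muscle cells of the media are the main source of elastin, and most elastin is laid down during development and early life.

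The libraries held between 35686291 and 47741128 counts. Spearman's rho across genes was 0.995 to 0.998 for pairs of libraries within a group, but Stem replicate 2 stood apart from the other Stem libraries, with a chi-square per degree of freedom of 164 and 134 against them, where all other within-group pairs had 7.13 to 20.4. The members' fold changes and calls that use Stem, and the Eln share and Eln to Fbn1 ratio, are therefore also given without it. The summed level of the 6 progenitor markers Ly6a, Cd34, Pdgfra, Scara5, Gli1 and Klf4 was 54276 to 62685 normalized counts in Stem, 12792 to 12944 under TGF-β and 12714 to 13346 in Both; Gli1 was at or under 3 counts in Stem. Most of this sum was Pdgfra, with means of 45657, 5438 and 6268, and Klf4 went the other way, with means of 3859, 6362 and 5977. The 6 smooth muscle markers Acta2, Tagln, Myh11, Cnn1, Smtn and Myocd summed to 10110 to 12817, 22421 to 24850 and 17166 to 18092, with Myocd at or under 3 counts in Stem. Here Acta2 (means of 4833, 11215 and 7447) and Tagln (3402, 9090 and 7627) made up most of the sum, whereas Myh11, the smooth muscle myosin heavy chain, was lower after TGF-β1 (263, 88.3 and 51.6). The 6 endothelial markers summed to at most 77.1 normalized counts, the 6 leukocyte markers to at most 164, most of it Lyz2, and the 6 hepatocyte markers to at most 2.63, although 1 label names hepatic tissue as the RNA source. Levels are normalized counts, the raw counts brought to a common library size (the mean library after TMM adjustment), in which 3 raw counts were worth 2.63 to 3.26. In bulk RNA, fewer cells of a type and less RNA per cell cannot be told apart.

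Elastin and fibrillin-1 differ in their coding sequences, and a stretch of each is shown because the contrast between the repetitive elastin core and its cysteine-rich scaffold is what the levels below compare. Both come from GENCODE M21 transcripts on GRCm38 and are read 5′ to 3′ on the coding strand. Eln lies on chromosome 5 and Fbn1 on chromosome 2, both on the minus strand, and both stretches are exonic coding sequence. Each stretch was chosen as the window of 40 codons with the most marked codons, so it is not typical of its gene. In the Eln stretch, codons 730 to 769, capitals mark the 25 glycine codons of 40. In the Fbn1 stretch, codons 129 to 168, capitals mark the 9 cysteine codons of 40.
Eln: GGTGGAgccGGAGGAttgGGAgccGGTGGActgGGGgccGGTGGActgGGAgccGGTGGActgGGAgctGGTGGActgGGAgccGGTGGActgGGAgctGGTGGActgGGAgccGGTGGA
Fbn1: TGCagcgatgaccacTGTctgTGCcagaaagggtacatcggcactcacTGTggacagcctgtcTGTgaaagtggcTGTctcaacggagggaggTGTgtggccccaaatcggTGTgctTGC
Over the whole coding sequence, 76.9% of the 860 Eln codons encoded glycine, alanine, proline or valine, and only 2 encoded cysteine. Glycine alone took 36.3%. Cysteine took 361 of 2873 codons in Fbn1 (12.6%) and 12.5% in Fbn2, 8.11% to 10.2% in the 5 fibulins, 4.88% in Mfap5 and 2.85% in Mfap4. The coding GC content was 62.6% for Eln and 51.7% for Fbn1.

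Between Stem and TGF-β, 9 of the 10 members passed the threshold of an adjusted p below 0.05 and a log2 fold change beyond 1 in either direction by edgeR's quasi-likelihood test, against a background of 25.1% of all genes tested. Of these, 6 were higher in TGF-β (background 10.6%) and 3 were lower (background 14.5%). Eln, Mfap4, Mfap5, Fbn1, Fbln5 and Fbln2 were higher, Fbln1, Fbn2 and Efemp1 were lower, and Efemp2 was not called. The libraries of the groups did not overlap for 9 members (background 76.8%), and the median log2 fold change of the 10 was 1.30, where that of all genes tested was -0.00275. Without Stem replicate 2 the number called was again 9, and their log2 fold changes were 10.44 for Eln, 3.87 for Mfap4, 2.83 for Mfap5, 1.49 for Fbn1, 1.43 for Fbln5, 1.34 for Fbln2, -2.47 for Efemp1, -2.56 for Fbn2 and -3.91 for Fbln1. The plot of normalized counts by library shows these levels on a log scale.

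**Figure D1:**
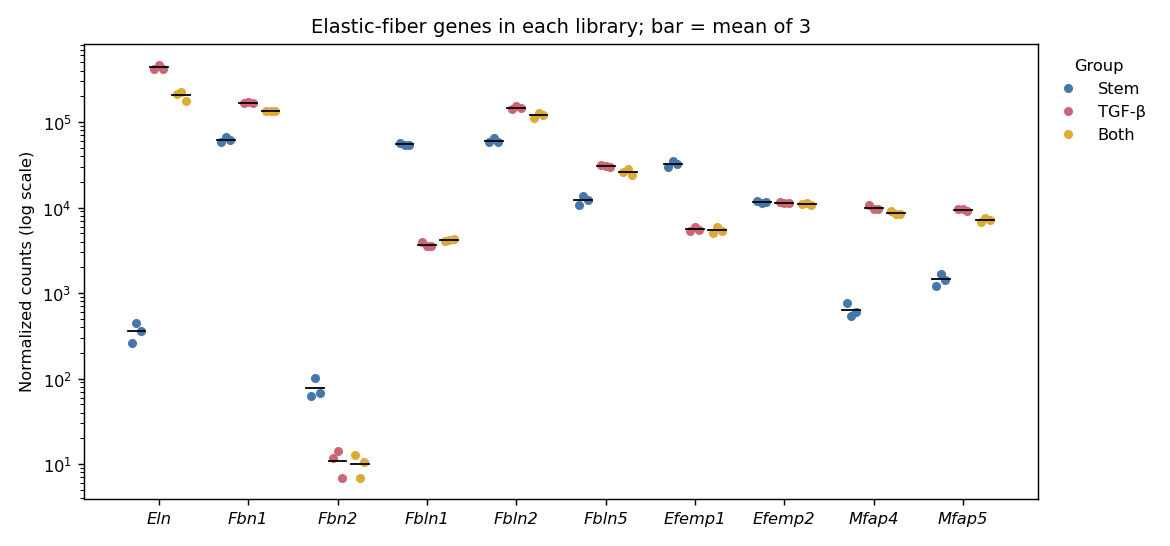
Normalized counts (log scale) of the 10 elastic-fiber genes in each library of Stem (blue), TGF-β (red) and Both (yellow); points are libraries and bars are means of 3. Eln went from 262 to 451 in Stem to 414025 to 468605 under TGF-β and 177002 to 226092 in Both, while Efemp2 stayed between 10798 and 11774 in all 9 libraries.

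Eln, which encodes tropoelastin, held 262, 451 and 365 normalized counts in Stem replicates 1 to 3. In TGF-β it held 414025, 468605 and 419909. In Both it held 210265, 226092 and 177002. All TGF-β libraries lay above all Both libraries, and every Stem library lay far below both. By mean level over all 55416 genes, Eln stood at rank 8677 in Stem (359 ± 94.7, SD, n = 3), rank 5 in TGF-β (434180.0 ± 29958) and rank 12 in Both (204453 ± 25056). Its log2 fold change from Stem to TGF-β was 10.24 ± 0.196 (SE), which is 1210.3-fold. The coefficient of variation was 26.4% among the Stem libraries, 6.90% under TGF-β and 12.3% in Both. Of the progenitor markers, Ly6a, Cd34, Pdgfra and Scara5 had lower means in TGF-β than in Stem and Klf4 and Gli1 higher ones. Of the smooth muscle markers, Acta2, Tagln and Myocd had higher means and Myh11 a lower one. Cnn1 and Smtn were at 88.6% and 95.8% of their Stem means, with overlapping libraries and no call. The part of these markers in the elastin difference was not tested.

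Fbn1 encodes fibrillin-1, the main structural protein of microfibrils. It held 58875, 66602 and 61431 normalized counts in Stem, 167518, 171045 and 168136 under TGF-β, and 134104, 135813 and 135928 in Both. The groups did not overlap, and the TGF-β and Both libraries varied by only 1.11% and 0.755% (CV). The log2 fold change from Stem to TGF-β was 1.44 ± 0.0482, or 2.71-fold. The second fibrillin gene, Fbn2, which is known mainly from development, was sparse: 61.8, 102.1 and 68.2 in Stem, 11.9, 14.2 and 6.83 under TGF-β, and 12.6, 6.91 and 10.5 in Both. Its log2 fold change from Stem to TGF-β was -2.81 ± 0.301, a 7.01-fold fall, and its highest raw count in any library was 94. The 2 fibrillins differed in the sign of their change, and Fbn1 was the more counted in every library.

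The microfibril-associated genes were both higher in TGF-β. Mfap4 encodes a fibrinogen-domain glycoprotein that binds elastin and fibrillin microfibrils. It held 762, 536 and 604 normalized counts in Stem, 10747, 9545 and 9639 under TGF-β, and 9193, 8384 and 8362 in Both. Every Stem library lay below every other library, and the log2 fold change of 3.97 ± 0.105 (15.7-fold) was the largest among the members after Eln. Mfap5, which encodes the fibrillin-binding glycoprotein MAGP-2, held 1223, 1683 and 1438 in Stem, 9592, 9516 and 9224 under TGF-β, and 6740.1, 7515 and 7129 in Both. Its 3 groups did not overlap, and its log2 fold change from Stem to TGF-β was 2.71 ± 0.0899 (6.52-fold).

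The 5 fibulins did not move together: 2 were called higher, 2 were called lower and 1 was not called. Fbln5, which tethers tropoelastin to cells and to lysyl oxidase-like 1 during fiber assembly, held 10687, 13770.4 and 12212 normalized counts in Stem, 31284, 30653 and 30012 under TGF-β, and 26307, 27901 and 24062 in Both. Its log2 fold change from Stem to TGF-β was 1.33 ± 0.0799 (2.51-fold). Fbln2, which binds fibronectin, elastin and fibrillin-1, held 58631, 65265 and 58137 in Stem, 140954, 153979 and 147753 under TGF-β, and 111528, 128644 and 119396 in Both, with a log2 fold change of 1.28 ± 0.0635 (2.43-fold). For both genes all Stem libraries lay below all TGF-β libraries, and all Both libraries lay between.

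Fbln1, a fibulin of the elastin core and of basement membranes that also binds fibronectin, was the member with the steepest fall. It held 57177, 54191 and 54520.5 normalized counts in Stem, 3925, 3577 and 3587 under TGF-β, and 4107, 4163 and 4313 in Both. The log2 fold change from Stem to TGF-β was -3.90 ± 0.0502, a 15.0-fold fall. Efemp1, whose product fibulin-3 binds tropoelastin only weakly, held 29785, 35021 and 32146 in Stem, 5313, 5922 and 5483 under TGF-β, and 5028, 5906 and 5315 in Both. It fell by 2.54 ± 0.0736 on the log2 scale, or 5.80-fold, and its TGF-β and Both libraries overlapped. Efemp2, whose product fibulin-4 brings lysyl oxidase to tropoelastin, was nearly level across the 9 libraries: 11774, 11359 and 11473 in Stem, 11693, 11292 and 11330.2 under TGF-β, and 11113, 11344 and 10798 in Both. Its log2 fold change from Stem to TGF-β was -0.01 ± 0.0361, and its sign turned when single libraries were left out (-0.020 to 0.0054).

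RefSeq promoter entries (GRCm38.p6) matched 6 of the 10 members, with none for Eln, Fbn2, Mfap4 and Mfap5. The 250 bases before the first listed start are shown for the fibulins that fell (Fbln1, Efemp1), for Fbln5, which rose, and for Efemp2, which was level, because these close relatives differed most in direction. Capitals mark CAGAC or its reverse complement GTCTG, the core of the SMAD-binding element, the letters that the SMAD proteins downstream of the TGF-β receptor recognise. The windows are chr15:85205699-85205948 (plus strand) for Fbln1, chr11:28852955-28853204 (plus) for Efemp1, chr12:101819120-101819369 (minus) for Fbln5 and chr19:5473696-5473945 (plus) for Efemp2, each printed 5′ to 3′ on the gene's strand and ending just before the listed start.
Fbln1: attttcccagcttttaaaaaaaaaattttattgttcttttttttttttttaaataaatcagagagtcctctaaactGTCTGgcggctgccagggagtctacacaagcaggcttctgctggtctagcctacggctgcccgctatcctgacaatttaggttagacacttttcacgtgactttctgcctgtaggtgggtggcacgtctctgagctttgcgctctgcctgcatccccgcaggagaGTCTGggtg
Efemp1: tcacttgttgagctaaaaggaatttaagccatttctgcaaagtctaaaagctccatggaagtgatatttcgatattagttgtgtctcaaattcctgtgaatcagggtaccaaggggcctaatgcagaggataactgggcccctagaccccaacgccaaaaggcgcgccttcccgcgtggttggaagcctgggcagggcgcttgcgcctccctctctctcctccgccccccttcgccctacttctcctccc
Fbln5: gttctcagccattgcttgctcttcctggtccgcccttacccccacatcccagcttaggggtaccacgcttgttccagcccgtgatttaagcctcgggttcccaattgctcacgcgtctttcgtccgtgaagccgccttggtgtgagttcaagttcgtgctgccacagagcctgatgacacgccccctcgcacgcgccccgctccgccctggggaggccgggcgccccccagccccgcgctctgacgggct
Efemp2: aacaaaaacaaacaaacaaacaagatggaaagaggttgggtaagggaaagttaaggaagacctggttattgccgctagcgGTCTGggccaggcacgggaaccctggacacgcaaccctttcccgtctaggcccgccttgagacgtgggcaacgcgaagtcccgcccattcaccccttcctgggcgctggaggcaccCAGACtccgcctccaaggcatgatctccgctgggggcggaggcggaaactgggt
The Fbln1 and Efemp2 windows each held 2 CAGAC matches, and the Efemp1 and Fbln5 windows held 0. For Fbln5, the bases just after either listed start were not found in its GENCODE M21 transcripts, so its windows are less certain. Those of all other entries were found. On either strand, CAGAC was found in 42.2% of 32851 promoter windows of the same length, so a match is common. Of these 4 windows, the AP-1 letters TGANTCA were found only in that of Efemp1 (6.75% of all windows). GC boxes (GGGCGG, 32.7% of all windows) numbered 2 in Fbln5, 2 in Efemp2, 1 in Efemp1 and 0 in Fbln1. The counts changed with the listed start used. The second Fbln5 entry (chr12:101818485-101818734, minus strand) held 2 CAGAC matches and 0 GC boxes, the second and the third Efemp2 entries held 0 CAGAC matches and 5 GC boxes each, and the second Fbln1 entry held 2 CAGAC matches and 1 GC box. The single entries of Fbln2 and Fbn1, both of which rose, held 0 CAGAC matches. Their listed starts lay 309 and 1555 bases from the GENCODE M21 gene starts. These are letter matches, and nothing about binding was measured.

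To set the members against each other, normalized counts were divided by the length of each gene's merged exons. In Stem the order per kilobase was Efemp1 (15865 ± 1287, SD, n = 3), Fbln1 (12659 ± 375), Fbln2 (9526 ± 625), Fbn1 (5137 ± 325), Efemp2 (3045 ± 56.6), Fbln5 (1769 ± 223), Mfap5 (403 ± 64.2), Mfap4 (330 ± 60.5), Eln (44.3 ± 11.7) and Fbn2 (5.85 ± 1.64). Among neighbours in this order only Mfap5 and Mfap4 overlapped between libraries. In TGF-β the order was Eln (53616 ± 3699), Fbln2 (23165 ± 1023), Fbn1 (13926 ± 155), Mfap4 (5191 ± 348), Fbln5 (4435 ± 92.0), Efemp2 (3020 ± 58.5), Efemp1 (2736 ± 154), Mfap5 (2631 ± 54.1), Fbln1 (846 ± 45.3) and Fbn2 (0.830 ± 0.285). Efemp1 and Mfap5 overlapped there. In Both the order of the 10 genes was the same as in TGF-β, with overlap between Efemp2 and Efemp1 instead.

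By merged exons, Eln moved from rank 9 to rank 1 among the members, and Efemp1 and Fbln1 from ranks 1 and 2 to ranks 7 and 9. Per kilobase, the 10 members summed to 48784 ± 2079 in Stem, 109567 ± 4643 under TGF-β and 72024 ± 4330 in Both (SD, n = 3). Eln made up 0.0904% ± 0.0204 of that sum in Stem, 48.9% ± 1.27 under TGF-β and 35.0% ± 2.48 in Both. Efemp1 and Fbln1 made up 32.5% and 26.0% in Stem, and 2.50% and 0.774% in TGF-β. Fbln2 took 19.5% in Stem, 21.1% under TGF-β and 26.1% in Both. Fbn1 took 10.5%, 12.7% and 15.5%. The shares of Fbln2 and Fbn1 were higher in Both than in TGF-β although their levels were lower, at 81.2% and 80.1% of their TGF-β means. The length used matters for Eln, whose merged exons of 8098 bases exceed its longest annotated transcript of 3853 bases. With the longest transcript as the length, the Eln share was 0.164%, 62.4% and 48.3%. Mfap5 then stood above Efemp1 in TGF-β (3791 against 2736 per kilobase) and in Both (2862 against 2659). In Stem, Efemp1 and Fbln1 came closer, at 15865 and 15112. Without Stem replicate 2, the Eln share in Stem was 0.0811% (merged exons).

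**Figure D2:**
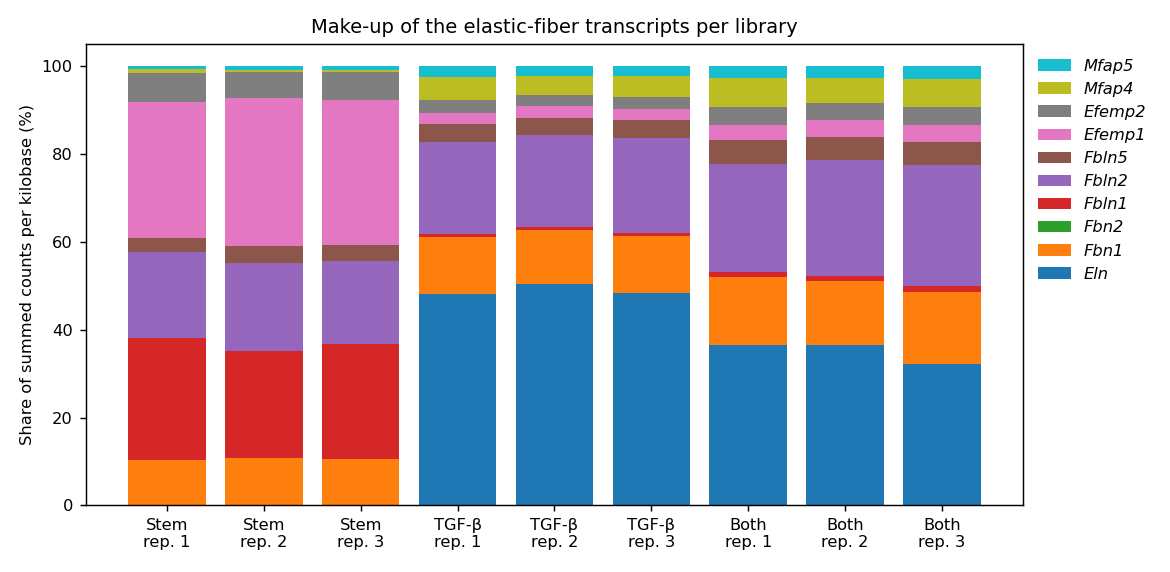
Share of each elastic-fiber gene in the members' summed counts per kilobase of merged exons (percent, each bar adds to 100%), by library. Eln is not visible in Stem (mean 0.0904%) and fills 48.9% on average under TGF-β and 35.0% in Both, while the Efemp1 and Fbln1 segments that lead in Stem shrink to 2.50% and 0.774% in TGF-β.

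The ratio of elastin to its scaffold was then taken library by library. Per kilobase, Fbn1 exceeded Eln 120.4-fold on average in Stem (150.2-, 98.6- and 113-fold in replicates 1 to 3). In TGF-β, Eln exceeded Fbn1 3.70-, 4.10- and 3.74-fold (3.85 ± 0.222, SD, n = 3). In Both the excess was 2.35-, 2.49- and 1.95-fold (2.26 ± 0.281), below every TGF-β library. Without Stem replicate 2 the Stem mean was 131-fold. With the longest transcript as the length, Fbn1 exceeded Eln 58.1-fold in Stem, and Eln exceeded Fbn1 7.98-fold under TGF-β and 4.70-fold in Both, so the direction was the same and the size depended on the length used. The fitted log2 fold change of Eln minus that of Fbn1 was 8.80 from Stem to TGF-β and -0.77 from TGF-β to Both, and without Stem replicate 2 the first was 8.95. The ratio of Eln to Mfap5 went from 0.109 ± 0.0124 in Stem to 20.4 ± 1.36 under TGF-β and 12.7 ± 1.51 in Both. That of Eln to Fbln5 went from 0.0248 ± 0.00358 to 12.1 ± 0.886 and 6.67 ± 0.344.

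Within the scaffold the ratios moved far less for some pairs than for others. Fbln5 per Fbn1 was 0.343 ± 0.0226 in Stem, 0.318 ± 0.00802 under TGF-β and 0.338 ± 0.0254 in Both, and the libraries of the groups overlapped. Fbln2 per Fbn1 was 1.85 ± 0.0481, 1.66 ± 0.0567 and 1.69 ± 0.111. Mfap4 per Fbn1 went from 0.0648 ± 0.0157 in Stem to 0.373 ± 0.0280 under TGF-β and 0.403 ± 0.0252 in Both, and Mfap5 per Fbn1 from 0.0782 ± 0.00764 to 0.189 ± 0.00414 and 0.178 ± 0.00860. Fbln1 per Fbln2 turned over, from 1.33 ± 0.11 in Stem to 0.0366 ± 0.00353 under TGF-β and 0.0512 ± 0.00350 in Both.

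With PFI-3 added to TGF-β1, 1 member was lower past the threshold, Eln, and 0 were higher; over all genes tested the shares were 0.47% lower, 0.161% higher and 0.632% in either direction. Eln in Both was 47.1% of its TGF-β mean, a log2 fold change of -1.09 ± 0.130 (SE). This value sits close to the fold minimum: without Both replicate 3, the lowest of that group, it was -0.99 and no member was called. By the adjusted p alone, 4 members were lower (background 5.38%) and 1 was higher (background 3.54%). The lower members besides Eln were Fbn1 (80.1% of its TGF-β mean, log2 fold change -0.32 ± 0.0473), Fbln2 (81.2%, -0.30 ± 0.0625) and Mfap5 (75.5%, -0.41 ± 0.0821). The higher one was Fbln1 (113%, 0.18 ± 0.0457), the member that had fallen most from Stem to TGF-β.

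The remaining 5 members did not pass by the adjusted p. Fbln5 stood at 85.1% of its TGF-β mean (-0.23 ± 0.0784), Mfap4 at 86.7% (-0.21 ± 0.0882), Efemp1 at 97.2% (-0.04 ± 0.0705) and Efemp2 at 96.9% (-0.05 ± 0.0361). Fbn2 stood at 91.3% with a wide error (-0.11 ± 0.417), so at its depth a difference of moderate size was not detectable. The libraries of TGF-β and Both did not overlap for 7 members (background 32.7%); the 3 that overlapped were Fbn2, Efemp1 and Efemp2. The median log2 fold change of the 10 was -0.22, against -0.00204 for all genes tested. TGF-β versus Both shares its TGF-β libraries with Stem versus TGF-β, so the 2 sets of differences are given side by side and no relation between them was computed.

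**Figure D3:**
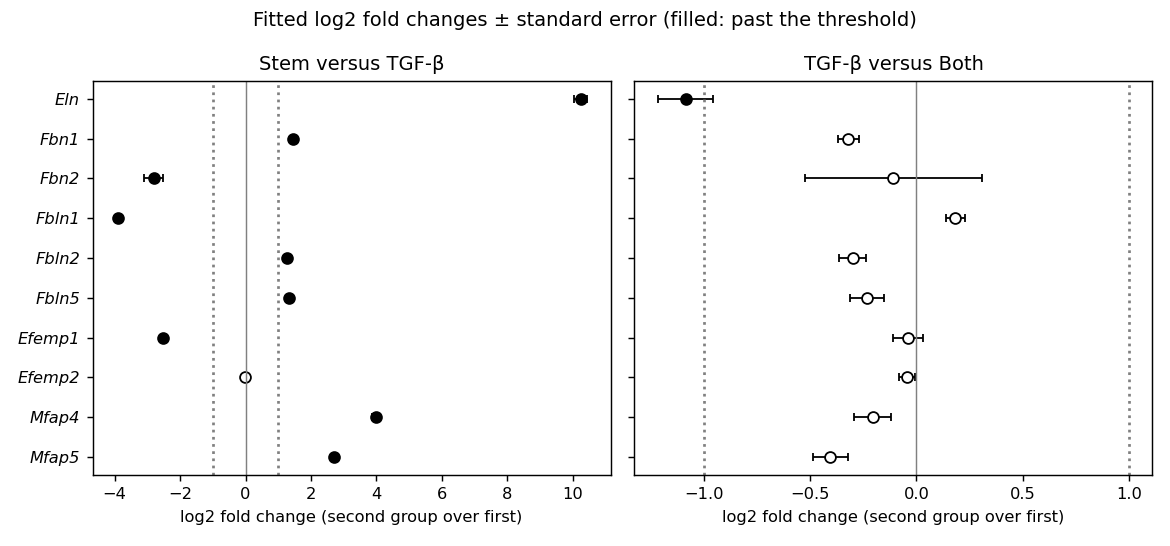
Fitted log2 fold changes (second group over first) of the 10 elastic-fiber genes, Stem versus TGF-β on the left and TGF-β versus Both on the right; bars are standard errors, dotted lines mark -1 and 1, and filled points passed the threshold. On the left 9 points are filled, from -3.90 (Fbln1) to 10.24 (Eln); on the right only Eln is, at -1.09.

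Between Stem and Both 8 members passed the threshold (background 22.8%), 5 of them higher in Both (background 9.55%) and 3 lower (background 13.2%). Eln was still 569.9-fold higher than in Stem (log2 fold change 9.15 ± 0.189). Mfap4 was 13.6-fold, Mfap5 4.92-fold, Fbn1 2.17-fold and Fbln5 2.13-fold higher. Fbln1 was 13.2-fold, Fbn2 7.57-fold and Efemp1 5.97-fold lower. Fbln2 was just outside the fold minimum at 0.98 ± 0.0631, and Fbln5 just inside at 1.09 ± 0.0795. Efemp2 was at -0.06 ± 0.0361. Without Stem replicate 2, 9 members were called, Fbln2 among them at 1.05, and the log2 fold changes of the others were 9.36 for Eln, 3.67 for Mfap4, 2.43 for Mfap5, 1.20 for Fbln5, 1.18 for Fbn1, -2.51 for Efemp1, -2.66 for Fbn2 and -3.73 for Fbln1.

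Another 54 genes of elastic-fiber assembly and turnover, listed by function, gave 44 that were tested. From Stem to TGF-β 15 of them were higher (background 10.6%) and 7 lower (background 14.5%) past the threshold, with a median log2 fold change of 0.33. From TGF-β to Both 0 passed the threshold by edgeR (31 had an unadjusted p below 0.05, background 24.1%) and 0 by DESeq2; 1 did at an unadjusted p below 0.05 with the same fold minimum (background 1.54%), Thsd4, chosen after its values were seen and sparse at 6.12 and 2.46 mean normalized counts. By edgeR's adjusted p alone 4 were higher (background 3.54%) and 17 lower (background 5.38%), 21 in either direction (background 8.92%); the median log2 fold change was -0.13. From Stem to Both 12 were higher (background 9.55%) and 7 lower (background 13.2%). By the adjusted p alone 43 differed from Stem to TGF-β and 41 from Stem to Both, where the background was 75% and 73.3%. Without Stem replicate 2, 23 passed the threshold from Stem to TGF-β and 20 from Stem to Both. The roles are small, and their counts below are read against the same backgrounds. The genes named next are, within each role, those with the largest rise and the largest fall from Stem to TGF-β. The few others, marked as such, were picked after their values were seen. All were thus chosen with the values of these same libraries known. The edgeR adjusted p-values printed for them do not allow for that choice. They are given as a description and not as separate evidence of a difference.

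The lysyl oxidases and transglutaminase 2, which crosslink the matrix, were higher in TGF-β than in Stem: 4 of 6 passed the threshold (background 10.6% higher), and all 6 were higher by the adjusted p alone (background 37.3%). Lox held 17163, 25729 and 19177 normalized counts in Stem, 241886, 257626 and 250920.3 under TGF-β, and 235936, 262460.0 and 244144 in Both. It rose 12.1-fold from Stem to TGF-β (log2 fold change 3.60 ± 0.13, adjusted p = 1.03e-10, edgeR). From TGF-β to Both its log2 fold change was -0.02 ± 0.113 (adjusted p = 0.958), and the Both mean was 98.9% of the TGF-β mean, beside 47.1% for Eln; the difference between the 2 genes was not tested. Loxl2, picked after its values were seen, rose by 2.91 (adjusted p = 3.44e-13) and in Both stood at 75.9% of TGF-β (adjusted p = 0.000231).

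Of 15 other genes listed for microfibril and elastin binding, 3 were higher (background 10.6%) and 5 lower (background 14.5%) in TGF-β than in Stem. Whether every listed product binds microfibrils or elastin was not checked, for example for Mfap3, Fbln7, Hmcn1 and Svep1. Adamtsl2, which binds fibrillin-1, went from 1.05, 0 and 4.33 normalized counts in Stem to 249, 249 and 215 under TGF-β and 128, 132 and 126 in Both. Its fitted log2 fold change was 6.96 (adjusted p = 6.21e-10, edgeR), a size that depends on the prior count because Stem was near 0; it was 8.50 without Stem replicate 3 and 6.42 without Stem replicate 2. From TGF-β to Both it was -0.89 (adjusted p = 0.00213). Fbln7, a further fibulin, fell from 2619, 3388 and 2812 in Stem to 253, 195 and 228 in TGF-β (-3.71, adjusted p = 2.92e-11) and was at 375, 336 and 331 in Both (0.63, adjusted p = 0.00866).

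Among this role, 4 more genes were picked after their values were seen. Mfap2, whose product MAGP-1 is the close relative of MAGP-2, fell from 1072 ± 23.6 to 163 in TGF-β (log2 fold change -2.72, adjusted p = 1.22e-11), whereas Mfap5 was higher there. Svep1 fell by 2.40 (adjusted p = 1.72e-11). Ltbp2 and Ltbp4 encode latent TGF-β binding proteins, which bind microfibrils. From Stem to TGF-β Ltbp2 rose by 1.26 (adjusted p = 5.16e-11) and Ltbp4 by 0.27 (adjusted p = 0.00875, not past the fold minimum). In Both they stood at 70.4% (adjusted p = 2.82e-05) and 57.3% (adjusted p = 0.000125) of TGF-β by edgeR.

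The secretion and assembly platform, the 14 chaperone, fibronectin, proteoglycan, integrin and protease genes, gave 4 higher (background 10.6%) and 2 lower (background 14.5%) in TGF-β, so its lower share was near the background. Itgb3, the integrin β3 subunit, rose from 387, 553 and 397 normalized counts in Stem to 2310.4, 2480 and 2379 under TGF-β (log2 fold change 2.42, adjusted p = 5.3e-10, edgeR). Itga8, the integrin α8 subunit, fell from 511, 332 and 345 to 47.5, 35.5 and 30.3 (-3.40, adjusted p = 1.49e-08). Among the elastin-degrading enzymes 5 of 10 were tested and 2 were higher. Ctsl, cathepsin L, rose by 1.07 (adjusted p = 1.41e-08), and Ctsk, cathepsin K, picked after its values were seen, by 1.05 (adjusted p = 3.63e-07). Scaled by total counts they were at 0.95 and 0.93, under the fold minimum, so both lost the call. Ctsk also lost it with a library left out, where its lowest value was 0.97. Of the 4 inhibitors tested 2 were higher, and Timp3, a matrix-bound inhibitor of metalloproteases, rose from 66185, 74934 and 68679 to 420878, 433208 and 440849.6 (2.63, adjusted p = 1.82e-12). By the adjusted p alone (background 75% in either direction), 3 enzymes were higher and 2 lower, and 2 inhibitors were higher and 2 lower. The lower ones, named after their values were seen, were Mmp2 (log2 fold change -0.51), Cela1 (-0.74), Timp2 (-0.98) and Cst3 (-0.31).

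**Figure D4:**
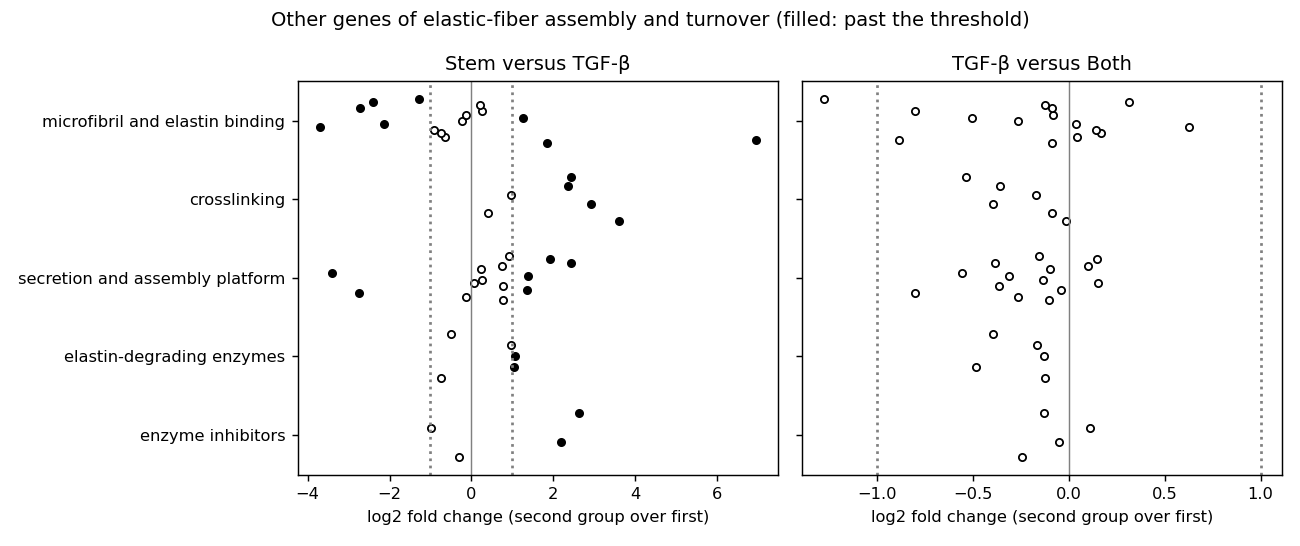
Fitted log2 fold changes (second group over first) of the 44 tested genes of elastic-fiber assembly and turnover, 1 point a gene, in 5 roles; dotted lines mark -1 and 1 and filled points passed the threshold. From Stem to TGF-β 22 points are filled, 15 to the right and 7 to the left; from TGF-β to Both 0 are.

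Genes with a pattern like that of Eln over the 9 libraries were sought by the root mean square difference of mean-centred log2 normalized counts. Before the log, 0.5 was added, so distances to genes near 0 in Stem, and their order, depend on this 0.5. The search left out the members and ran over the 10890 other tested genes whose mean level reached 100 normalized counts. The nearest were Wnt10b (0.537), C1qtnf3 (0.600), Ighm (1.19), Atp2a3 (1.22) and Crabp2 (1.27). All 5 were higher in TGF-β than in Stem. The mean normalized counts were 0 and 281 for Wnt10b, 5.01 and 6965 for C1qtnf3, 0.361 and 148 for Ighm, 0.711 and 225 for Atp2a3, and 5.01 and 1151 for Crabp2, so the folds are not well defined at the Stem end. From TGF-β to Both their fitted log2 fold changes were -1.30 for Crabp2, -0.87 for Wnt10b, -0.63 for Atp2a3, 0.06 for C1qtnf3 and 0.19 for Ighm, a description only, since the genes were chosen for their pattern over these same libraries. Fbn1 had closer neighbours on this scale: Cdk6 (0.0451), Zfp365 (0.0533), Cyp4f16 (0.0550), Esd (0.0558) and Tmsb4x (0.0558). The distance depends on the size of the change, which was far larger for Eln, so the distances of the 2 genes are not comparable. Their log2 fold changes ran from 1.34 to 1.52 between Stem and TGF-β and from -0.34 to -0.22 between TGF-β and Both.

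Exons of some members overlap other genes, which matters where the counting did not use strand, a setting not given in the sources used here. In GENCODE M21, an opposite-strand gene covered 20.1% of the Fbn1 exon bases (Gm9913), 3.30% of Eln (the antisense gene Gm30003), 4.57% of Efemp2 (Mus81), 4.63% of Mfap4 (Mapk7) and 0.976% of Fbn2 (Gm26507). Fbln1, Fbln2, Fbln5, Efemp1 and Mfap5 had no such overlap.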

How the data were processed

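RNA-seq was run on ribosome-depleted total RNA of 9 libraries. The authors deposited raw read counts per gene on GRCm39; the submitters' processing notes name HISAT2 2.2.1, SAMtools 1.13 and HTSeq 0.11.3, while the study's methods name STAR, and the strand setting and handling of multiply mapped reads are not given in the sources used here. Genes were filtered with filterByExpr, scaled by TMM and fitted together by group in edgeR 4.0.16 (R 4.3.3; quasi-likelihood, prior count 0.125), with Benjamini-Hochberg adjustment over 14879 genes; a call needed an adjusted p below 0.05 and a log2 fold change beyond 1 in either direction. The biological coefficient of variation was 6.13%. Replicate numbers were not used to pair libraries. Scripts were tested on simulated data. Exon lengths, overlaps and coding sequences came from GENCODE M21 on GRCm38, promoters from RefSeq, so no gene coordinates on the files' build are given. The members and gene lists were chosen with earlier results of these data known. Named were all members, the largest rise and fall past the threshold in each role of the 54 further genes, and the 5 genes nearest to Eln and to Fbn1 in pattern; exceptions are marked. Alternatives were DESeq2 1.42.0, other scalings, filters, prior counts and thresholds, only the libraries compared, a replicate block, removal of the 10 most counted genes other than members, each library left out, and the longest transcript as gene length.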

Additional observations from a re-analysis of the deposited data

How the results depend on the processing

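From Stem to TGF-β, 9 members were called under all 20 alternatives, and 7 to 9 were from Stem to Both. From TGF-β to Both the call of Eln depended on the fold minimum: 0 members were called by TREAT against 2-fold, 5 with no fold minimum, and 0 to 1 with a library left out, the 0 without Both replicate 3. With no fold minimum, called genes of the 54 further genes numbered 43 from Stem to TGF-β (75% of all genes tested were called), 21 from TGF-β to Both (8.92%) and 41 from Stem to Both (73.3%). Of 1402 gene values under alternatives, 1385 kept their direction and call, 6 lost the call, 2 gained it and 9 changed sign, all 9 uncalled and with a library left out: Efemp2 from Stem to TGF-β (-0.020 to 0.0054, log2 fold change), and from TGF-β to Both Fbn2 (-0.37 to 0.12), Efemp1 (-0.11 to 0.0092) and Lox (-0.061 to 0.018). Scaling by total counts moved the median of all genes to -0.12 from Stem to TGF-β and -0.11 from Stem to Both; Fbln5 was then at 0.99 from Stem to Both and lost its call. Eln minus Fbn1 stayed between 8.66 and 8.95 from Stem to TGF-β and between -0.84 and -0.67 from TGF-β to Both. Timp3 has no value without the 10 most counted genes, being one of them. The replicate numbers are not known to mark shared animals or batches. Deviations from the group means correlated at -0.043 to 0.436 over the 9 same-numbered pairs and at -0.408 to 0.321 over the other 18. The highest values were those between replicates 2: 0.371 for Stem and TGF-β, 0.425 for Stem and Both, and 0.436 for TGF-β and Both. With libraries of other numbers, replicates 2 correlated negatively throughout, at -0.408 to -0.091. Deviations within a group add to 0 for each gene, so negative values here follow on balance from the positive ones. They are not a separate observation. Eln was highest in replicate 2 of each group. What the replicates 2 share is not known and was not tested. A fit with the replicate block called 9, 1 and 8 members in the 3 comparisons and changed no member's call. Shares and ratios without Stem replicate 2 were computed after the data were seen. Fbn2 was too sparse for a small change to be detected.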
